A study of Mus musculus with 9 samples.

Results

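The mitosis and cell cycle driver genes described here were chosen by symbol, with no measured value in the rule: Cdk4, Ccna2, Ccnb1, Ccnb2, Cdk1, Plk1, Aurkb, Birc5, Top2a and Mki67. Of these 10 genes, 8 are among the 2889 genes of the deposited sample table, and Ccnb2 and Top2a were not analysed here. The cells were CD3+ T cells taken by negative selection from spleens of wild-type C57BL/6 mice. Cells of each of 3 mice were kept for 4 h in adipocyte conditioned medium, in stromal cell conditioned medium or in unconditioned RPMI medium, which gives 3 samples per medium and 9 in all. RNA of the whole cell population was sequenced, so fewer cells of a type and less RNA per cell cannot be told apart. The series concerns the T cell niche, the cytoskeleton and the forces at the T cell receptor, and the comparisons with unconditioned medium ask which transcripts respond to each conditioned medium.

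Progress through the cell cycle is driven by kinases that need a cyclin partner. The kinase encoded by Cdk4 acts early, in the G1 phase, where with a D-type cyclin it phosphorylates the retinoblastoma protein and frees E2F factors. Later genes are transcribed in S and G2 phase, when the repression by the DREAM complex is lifted and MYB and FOXM1 complexes activate promoters through an element called the CHR. Resting T cells of the spleen are in their great majority outside the cycle and enlarge for many hours after activation before they first divide. A T cell that enters G1 is known to raise Cdk4 well before the mitotic genes.

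The promoters of 6 of the 8 genes were found in the RefSeq table (GRCm38.p6). Those of 4 are shown to set the G1 kinase gene Cdk4 beside 3 mitotic genes. Each run gives the 250 bases before the annotated start site, read in the direction of the gene, and capitals mark matches on either strand to the CCAAT box (CCAAT), the CHR (TTTGAA or TTTAAA), the E-box bound by MYC family proteins (CACGTG) and 2 forms of the E2F site (TTGGCGC and TTCCCGC). Cdk4 lies at chr10:127063285-127063534 (+ strand), Cdk1 at chr10:69352913-69353162 (− strand), Ccnb1 at chr13:100786487-100786736 (− strand) and Plk1 at chr7:122159185-122159434 (+ strand).
Cdk4: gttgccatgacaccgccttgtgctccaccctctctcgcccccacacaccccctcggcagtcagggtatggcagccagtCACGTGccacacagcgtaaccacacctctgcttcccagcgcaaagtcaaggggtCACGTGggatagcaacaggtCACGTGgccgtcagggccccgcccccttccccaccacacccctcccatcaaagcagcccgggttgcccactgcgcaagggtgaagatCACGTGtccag
Cdk1: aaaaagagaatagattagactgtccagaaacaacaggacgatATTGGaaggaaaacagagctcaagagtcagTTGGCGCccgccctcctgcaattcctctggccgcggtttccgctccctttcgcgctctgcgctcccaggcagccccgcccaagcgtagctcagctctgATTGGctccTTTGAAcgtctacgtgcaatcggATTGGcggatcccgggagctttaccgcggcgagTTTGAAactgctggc
Ccnb1: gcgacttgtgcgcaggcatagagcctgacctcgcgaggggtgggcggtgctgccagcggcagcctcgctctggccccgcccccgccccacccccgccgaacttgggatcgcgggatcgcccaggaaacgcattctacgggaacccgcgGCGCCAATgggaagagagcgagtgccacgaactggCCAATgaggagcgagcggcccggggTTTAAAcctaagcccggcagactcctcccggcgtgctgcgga
Plk1: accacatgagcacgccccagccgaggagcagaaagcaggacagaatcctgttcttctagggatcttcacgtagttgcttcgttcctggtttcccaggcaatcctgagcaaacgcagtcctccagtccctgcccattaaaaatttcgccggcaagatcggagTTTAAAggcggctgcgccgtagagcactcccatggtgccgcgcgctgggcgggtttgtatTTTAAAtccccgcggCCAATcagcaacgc

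The Cdk4 window holds 4 E-boxes and no match to the other motifs. The Cdk1 window holds 3 CCAAT boxes, 2 CHR matches and 1 E2F match, the Plk1 window 1 CCAAT box and 2 CHR matches, and the Ccnb1 window 2 CCAAT boxes, 1 CHR match and 1 E2F match that overlaps a CCAAT box. The Mki67 window, not shown, has 3 CCAAT boxes, 2 CHR matches and 1 E2F match, and that of Birc5 has a single TTTAAA match at position −220 from the start site. Among all 32851 promoter windows of the same length, the CCAAT box was found in 33.8%, TTTGAA in 16.0%, TTTAAA in 12.1%, CACGTG in 6.02%, TTGGCGC in 1.97% and TTCCCGC in 3.82%. These are matches of letters, not measured sites.

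Values are normalized counts, which are read counts that the authors divided by 1 size factor per sample. The sample table holds genes that the authors listed as changed, so every share over its genes is a share of that selection. Reads on the listed genes came to 6522742 to 13758643 per sample, and the fewest reads behind a member value were 101, for Ccnb1 in adipocyte medium, mouse 3 (exact Poisson 95% interval 82.3 to 123, counting error only). Tests were made with limma on log2(normalized count + 1) over all 2868 genes with a mean of at least 1, with Benjamini-Hochberg adjustment over those genes and a threshold of 0.05. Of 16 T cell markers 4 are in the sample table, the CD3 chain genes Cd3e and Cd3g and the co-receptor genes Cd8a and Cd8b1, and together they had summed levels of 32578 to 35237 normalized counts in adipocyte, 72070 to 73297 in stromal and 86513 to 97969 in unconditioned samples.

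All 8 driver genes were lower after 4 h in adipocyte medium than in unconditioned medium, by 1.89-fold for the G1 kinase gene Cdk4 and by 2.14-fold to 4.31-fold for the 7 genes of S phase and mitosis. Every adipocyte sample was below every unconditioned sample for each of the 8. The authors' deposited table for this comparison already lists all 8 genes as changed beyond 1.5-fold, so the calls repeat that selection. Of all tested genes 97.2% were called, 63.4% lower and 33.8% higher, and 63.4% had adipocyte samples that were all below the unconditioned samples. A fall alone therefore does not set the 8 genes apart from the table.

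The cyclin genes had the lowest fold changes of the 8, although differences between members were not tested. Ccna2 (ENSMUSG00000027715), for cyclin A2, the partner of CDK2 and CDK1 in S and G2 phase, had 271.8, 264.6 and 165.1 normalized counts in adipocyte medium in mice 1, 2 and 3, against 958.4, 1097.8 and 914.8 in unconditioned medium. The lowest unconditioned sample was thus more than 3 times as high as any adipocyte sample. The log2 fold change was −2.11 (SE 0.18, limma adjusted p = 2.24e-07), lower in 3 of 3 mice. Ccnb1 (ENSMUSG00000041431), for cyclin B1, which activates CDK1 at mitotic entry, had 162.5, 175.5 and 98.7 in adipocyte medium, against 614.2, 526.7 and 542.5 in unconditioned medium. Its log2 fold change was −1.98 (SE 0.20, limma adjusted p = 7.54e-07).

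Among the mitotic kinase genes, Cdk1 (ENSMUSG00000019942), for the kinase that drives entry into mitosis, had 201.3, 261 and 119.2 normalized counts in adipocyte medium, against 442.8, 524.1 and 469.8 in unconditioned medium. It was the member that varied most between adipocyte samples, with a coefficient of variation of 36.7%, and its log2 fold change was −1.37 (SE 0.23, limma adjusted p = 7.34e-05). Plk1 (ENSMUSG00000030867), for polo-like kinase 1, which acts in centrosome maturation and spindle assembly, had 220, 299.7 and 221.8 in adipocyte medium, against 729.9, 754.5 and 662.2 in unconditioned medium (log2 fold change −1.54, SE 0.15, limma adjusted p = 5.05e-07). Its highest adipocyte sample was far below its lowest unconditioned sample.

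Aurkb and Birc5 encode partners in the chromosomal passenger complex, which corrects the attachment of chromosomes to the spindle and then acts in cytokinesis. Aurkb (ENSMUSG00000020897), for the kinase of the complex, had 254.6, 245.7 and 170 normalized counts in adipocyte medium, against 675.6, 665.8 and 601 in unconditioned medium (log2 fold change −1.55, SE 0.16, limma adjusted p = 1.23e-06). Birc5 (ENSMUSG00000017716), for survivin, which targets the complex to the centromere and belongs by sequence to the inhibitor of apoptosis family, had 162.5, 182.7 and 136.8 in adipocyte medium, against 589.9, 667.5 and 605.4 in unconditioned medium. Survivin transcript was 3.87-fold lower (log2 fold change −1.95, SE 0.14, limma adjusted p = 5.92e-08), and among the 7 late genes its adipocyte samples were the most alike, with a coefficient of variation of 14.3%.

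Mki67 (ENSMUSG00000031004), for the Ki-67 protein that coats mitotic chromosomes and marks cycling cells, had 471.7, 671.4 and 513.9 normalized counts in adipocyte medium, against 1259.8, 1116.9 and 1145.3 in unconditioned medium. Of the late genes it had the smallest change, 2.14-fold (log2 fold change −1.10, SE 0.13, limma adjusted p = 2.97e-06). Cdk4 (ENSMUSG00000006728) had 3001.5, 3076.2 and 2905.6 in adipocyte medium, against 5404.7, 5995.7 and 5591.7 in unconditioned medium (log2 fold change −0.92, SE 0.07, limma adjusted p = 1.02e-07). Its samples were close together within each medium, with a coefficient of variation of 2.9% in adipocyte, 2.3% in stromal and 5.3% in unconditioned medium. The corresponding medians over tested genes with a mean of at least 100 were 11.2%, 9.3% and 6.3%.

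**Figure D1:**
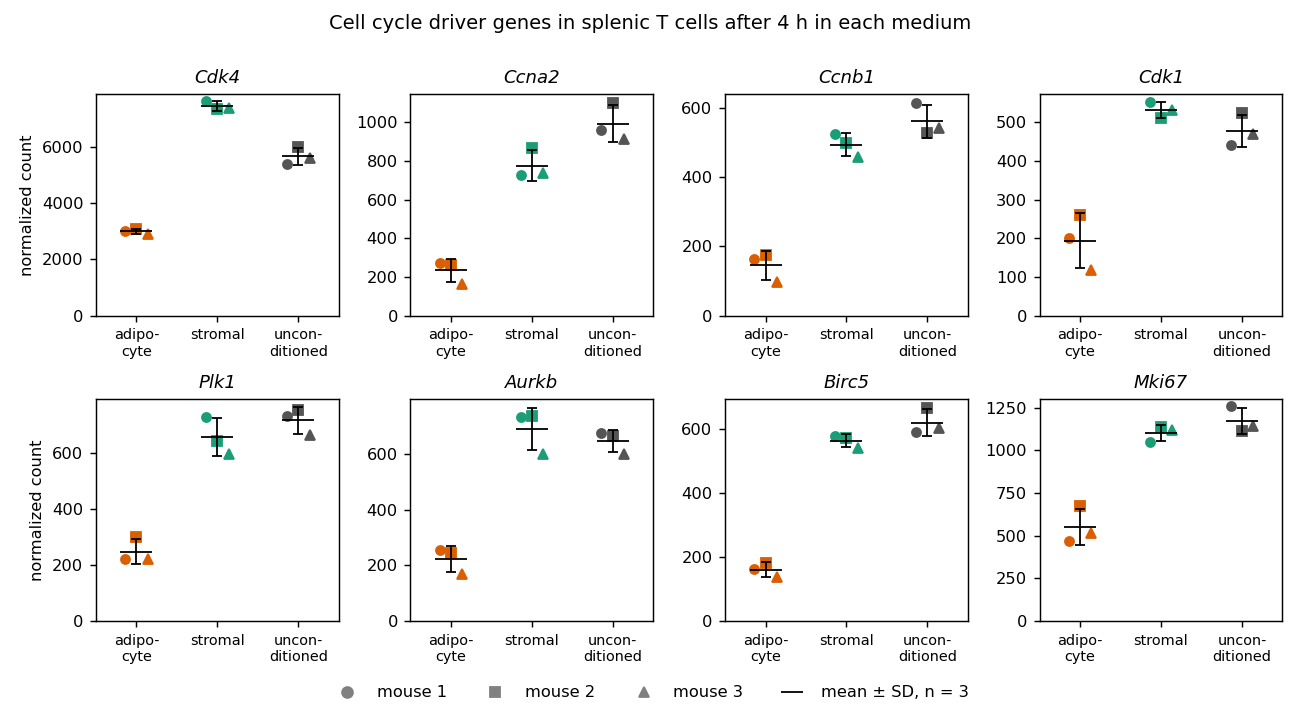
Normalized counts (y axes, from 0) of the 8 driver genes in each sample, by medium, with 1 symbol per mouse and the mean ± SD (n = 3) in black. For each gene all 3 adipocyte samples lie below all stromal and unconditioned samples, and for Cdk4 the stromal samples, 7327.3 to 7637.2, lie above the unconditioned samples, 5404.7 to 5995.7.

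The size of these falls depends on the scaling, which moves all genes alike. The median of all tested genes was at −1.03 on the log2 scale, and scaling by a median of ratios over the listed genes raised every fold change by 0.93, and TMM scaling by 0.45. With TMM all 8 genes were still lower, with Cdk4 at −0.47. With the median of ratios 5 of the 8 genes were still lower, against 36.5% of all genes lower and 37.6% higher, with Ccna2 at −1.18, Ccnb1 at −1.06, Birc5 at −1.03, Aurkb at −0.63 and Plk1 at −0.62. Cdk1 at −0.45 (limma adjusted p = 0.0889), Mki67 at −0.18 (limma adjusted p = 0.209) and Cdk4 at 0.01 (limma adjusted p = 0.926) were not past the threshold. Relative to the selected genes, Ccna2 was lower than all but 9.8% of them, Ccnb1 than all but 12% and Birc5 than all but 12.6%, whereas 56.5% of genes had a lower fold change than Cdk4.

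**Figure D2:**
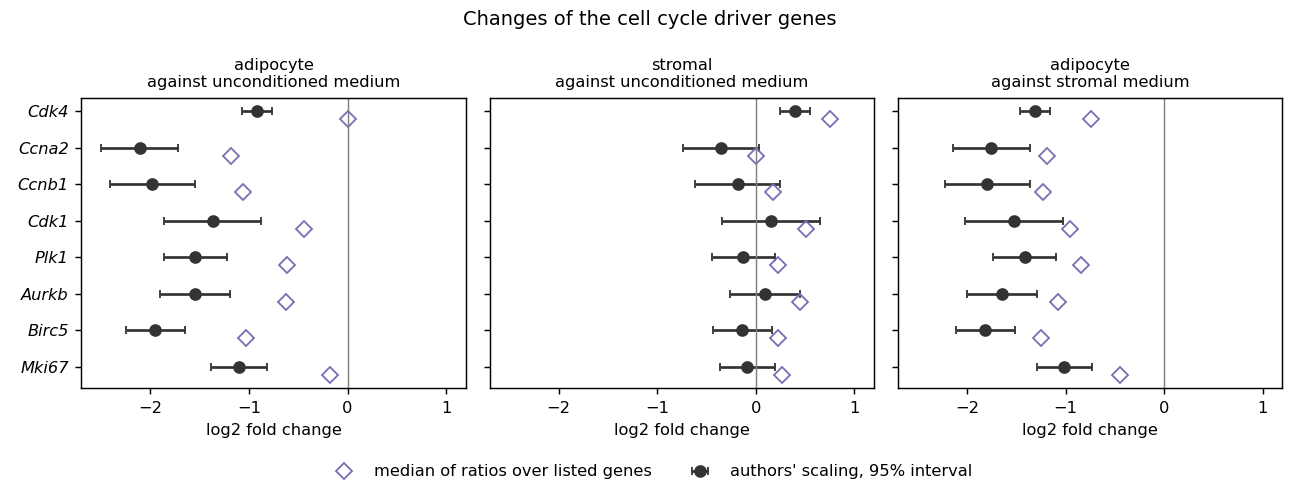
Log2 fold changes (x axes) of the 8 driver genes in the 3 comparisons. Filled circles with bars are the values on the authors' scaling with 95% intervals from limma, and open diamonds are the values after scaling by the median of ratios over the listed genes. In adipocyte against unconditioned medium the diamond of Cdk4 sits at 0.01 and that of Ccna2 at −1.18.

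A ratio of genes within a sample does not depend on the scaling of samples. Relative to Cdk4, Ccna2 in adipocyte medium stood at −0.94, −1.02 and −1.61 on the log2 scale in mice 1, 2 and 3, taken from the unconditioned mean, a mean difference of −1.19 (SD 0.37, n = 3). Ccnb1 was at a mean of −1.06 (SD 0.41, n = 3), Birc5 at −1.03 (SD 0.17, n = 3), Aurkb at −0.63 (SD 0.29, n = 3) and Plk1 at −0.62 (SD 0.22, n = 3). For these 5 genes adipocyte and unconditioned samples did not overlap, and the two-sided exact permutation test gave p = 0.1, the smallest that 3 samples against 3 allow. Of all other tested genes 38.4% had a ratio to Cdk4 that was lower with no overlap. Cdk1 at −0.45 (SD 0.53, n = 3, exact p = 0.3) and Mki67 at −0.18 (SD 0.24, n = 3, exact p = 0.4) had adipocyte samples that overlapped with the unconditioned samples. The 7 ratios share Cdk4 and were tested in 3 comparisons without adjustment. Cdk4 was at 0.008 in adipocyte against unconditioned medium after the median of ratios. The mean ratios therefore nearly repeat the values on that scale and are not separate evidence.

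Stromal medium gave a different picture. Relative to unconditioned medium Cdk4 was higher and 0 of the 7 late genes were past the threshold, while 57.7% of all tested genes were called, 21.1% higher and 36.6% lower. Cdk4 had 7637.2, 7327.3 and 7371.3 normalized counts in stromal medium, against 5404.7, 5995.7 and 5591.7 in unconditioned medium. Every stromal sample was above every unconditioned sample, which holds for 25.1% of tested genes. The rise was 1.31-fold (log2 fold change 0.40, 95% interval 0.24 to 0.55, SE 0.07, limma adjusted p = 0.000413) and was seen in 3 of 3 mice. The authors' deposited table for stromal medium, which asks for a change beyond 1.5-fold, lists 0 of the 8 genes.

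The late driver genes stayed near their unconditioned level in stromal medium, within the intervals given here. Ccna2 had 724.5, 865.4 and 736.4 normalized counts in stromal medium, against 958.4, 1097.8 and 914.8 in unconditioned medium, with no overlap between the groups. Its log2 fold change of −0.35 (95% interval −0.74 to 0.04, limma adjusted p = 0.111) missed the threshold. It passed without adipocyte replicate 3 in the fit (limma adjusted p = 0.0215) and when only the samples of these 2 media were fitted (limma adjusted p = 0.0176).

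Ccnb1 had 523.3, 498.6 and 457.4 normalized counts in stromal medium, a log2 fold change of −0.19 (95% interval −0.61 to 0.24, limma adjusted p = 0.441). Birc5 had 578.4, 573.2 and 541.2 in stromal medium (log2 fold change −0.14, 95% interval −0.44 to 0.16, limma adjusted p = 0.414). Both genes had stromal samples that were all below their unconditioned samples, as 44.2% of tested genes did. Plk1 had 728.7, 641.8 and 596.3 in stromal medium (log2 fold change −0.13, 95% interval −0.45 to 0.19, limma adjusted p = 0.47) and overlapped with unconditioned medium.

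Aurkb had 733.7, 736.8 and 602.3 normalized counts in stromal medium (log2 fold change 0.09, 95% interval −0.27 to 0.45, limma adjusted p = 0.657). Cdk1 had 551.7, 511.8 and 531.7 in stromal medium (log2 fold change 0.15, 95% interval −0.34 to 0.65, limma adjusted p = 0.584), and Mki67 had 1049.2, 1139.8 and 1120.8 in stromal medium (log2 fold change −0.09, 95% interval −0.37 to 0.19, limma adjusted p = 0.574). In these 3 genes the stromal and unconditioned samples overlapped. The signs of the small values are not firm, since the median of ratios moved every stromal fold change up by 0.36 and put all 7 late genes above 0, with Aurkb at 0.45 (limma adjusted p = 0.0371) and Cdk4 at 0.75. On that scale Aurkb and Cdk4 were the 2 members called higher, as were 39.3% of all genes.

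Set against Cdk4 within the sample, the late genes were lower in stromal than in unconditioned medium as well. The mean difference was −0.75 for Ccna2 (SD 0.17, n = 3), −0.58 for Ccnb1 (SD 0.08, n = 3), −0.53 for Birc5 (SD 0.05, n = 3), −0.52 for Plk1 (SD 0.12, n = 3), −0.48 for Mki67 (SD 0.10, n = 3), −0.31 for Aurkb (SD 0.16, n = 3) and −0.24 for Cdk1 (SD 0.03, n = 3). Each of these 7 ratios had stromal samples all below the unconditioned ones, with a two-sided exact permutation p = 0.1, the smallest possible. The same held for 65.1% of all other tested genes, since a ratio to Cdk4 carries the rise of Cdk4 itself, and 80.4% of tested genes had a lower fold change than Cdk4. In adipocyte medium the ratios of Ccna2, Ccnb1 and Birc5 were lower again than in stromal medium, with mean differences of −0.44, −0.48 and −0.50 (two-sided exact p = 0.1 each), while that of Mki67 was higher in adipocyte than in stromal medium by 0.30 (exact p = 0.1). Of all other tested genes 9.59% had a lower and 67.3% a higher ratio with no overlap.

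**Figure D3:**
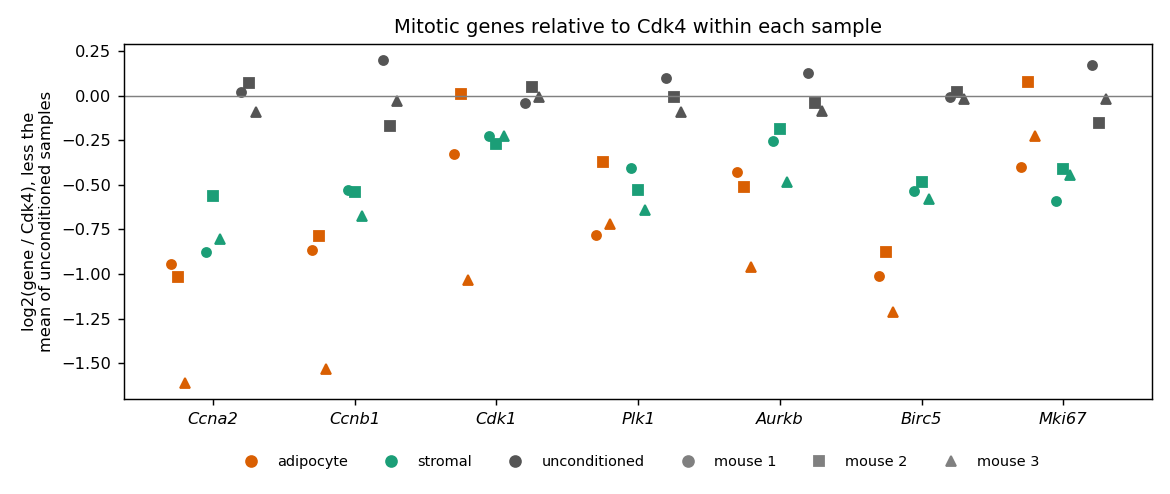
Log2 ratio of each of the 7 late genes to Cdk4 in the same sample, less the mean of the unconditioned samples (y axis), by medium (colour) and mouse (symbol). Stromal samples lie between −0.88 and −0.18, and for Ccna2, Ccnb1 and Birc5 all adipocyte samples lie below all stromal samples.

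The difference between the conditioned media was tested directly. All 8 genes were lower in adipocyte than in stromal medium with no overlap. Of all tested genes 91.0% were called, 57.2% lower and 33.8% higher, and 56.2% were lower with no overlap. The log2 fold changes were −1.82 for Birc5 (SE 0.14), −1.79 for Ccnb1 (SE 0.20), −1.76 for Ccna2 (SE 0.18), −1.64 for Aurkb (SE 0.16), −1.52 for Cdk1 (SE 0.23), −1.41 for Plk1 (SE 0.15), −1.31 for Cdk4 (SE 0.07) and −1.01 for Mki67 (SE 0.13), with limma adjusted p-values from 2.96e-08 to 4.17e-05. After the median of ratios all 8 were still lower, with Mki67 at −0.44 the closest to 0, while 38.0% of genes were lower and 40.8% higher. This comparison uses the same adipocyte samples as the first and is not separate evidence.

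Within adipocyte medium the cells of mouse 3 had the lowest value for 6 of the 8 genes, and those of mouse 1 for Plk1 and Mki67. Among 2501 tested genes with a mean of at least 100, mouse 3 was lowest in 35.9%. The log2 difference of adipocyte from unconditioned medium in mice 1, 2 and 3 was −1.81, −2.05 and −2.46 for Ccna2. It was −1.13, −1.0 and −1.97 for Cdk1, and −0.85, −0.96 and −0.94 for Cdk4. Without adipocyte replicate 3 the log2 fold change was −1.88 for Ccna2 and −1.06 for Cdk1, and all 8 genes were still lower.

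Some reads cannot be assigned to a single gene. The library kit does not keep strand, and in GENCODE M21 510 exonic bases of Ccna2 overlap exons of Exosc9 on the other strand, as do 641 exonic bases of Cdk4 with Tspan31. Exosc9 and Tspan31 are not in the sample table. Transcripts of Ccnb1 have 4 processed pseudogenes that align over 1272 to 1294 bases, of which Ccnb1-ps is the closest at 99.2% identity over 1287 bases, and Plk1 has Plk-ps1 at 93.5% over 1813 bases. Shorter alignments were found for Mki67 with Gm44521, at 98.6% over 216 bases, and for Birc5 with Gm14963, at 90.1% over 202 bases. The values of these 6 genes are uncertain to the extent that the counting split or shared such reads.

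Across the 9 samples the 7 late genes followed each other closely, with Pearson correlations of log2 values of 0.93 to 0.99 in 21 pairs. Those of Cdk4 with the late genes ran from 0.88 for Ccna2 to 0.95 for Aurkb, a range that overlaps with that of the late pairs. These correlations carry the contrast of adipocyte medium with the other media and are a description of 9 libraries. The 4 genes most like each member were taken by the same measure among 2429 named genes with a mean of at least 100. Of the 28 entries nearest to the 7 late genes, some of them the same gene, 6 are on a cell cycle list used here. Of the 4 nearest to Cdk4 0 are. The share of listed genes among the 2429 was not computed. The single closest genes were Cuedc2 for Ccna2 at 0.993, Slc11a2, for a metal ion transporter, for Ccnb1 at 0.998, Idh1, for cytosolic isocitrate dehydrogenase, for Cdk1 at 0.989 and Ppil3 for Aurkb at 0.992. They were Capg, for an actin filament capping protein, for Birc5 at 0.995, Kif20a, for a mitotic kinesin, for Plk1 at 0.996, Ckap2l, for a spindle protein, for Mki67 at 0.996 and Pik3r2, for a regulatory subunit of phosphoinositide 3-kinase, for Cdk4 at 0.999. The 6 entries on a cell cycle list were Kif20a, Ckap2l, Ccnb1 for Ccna2, Cdca3 for Birc5, and Tpx2, for a spindle activator of Aurora A, for both Ccna2 and Ccnb1. None of the nearest genes of Cdk1, Aurkb or Cdk4 is on such a list. The lists do not hold every gene of the cycle, so an unlisted neighbour can still be one. Ska3 at 0.99 and Tedc1 at 0.988, both near Aurkb, are on none of them.

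The wider machinery of mitosis was read from 3 lists, on mitotic entry, checkpoint and exit, on chromosomal passengers, kinetochore and spindle, and on mitotic chromosomes. They hold 118 symbols, of which 46 are in the sample table and all 46 in the authors' adipocyte table. In adipocyte against unconditioned medium 42 were lower and 4 higher (63.4% and 33.8% of all tested genes), with a median log2 fold change of −1.43 beside −1.03 for all genes. Of the 46, 4 are driver genes described above, and without them 38 of 42 were lower and 4 higher. After the median of ratios 30 of the 46 were still lower and 4 higher (36.5% and 37.6% of all genes). The list median was then −0.51, beside −0.11 for all genes. Ube2c, for the ubiquitin conjugating enzyme of the anaphase promoting complex, had 136.6, 154.8 and 118.2 normalized counts in adipocyte medium, against 571.3, 553.7 and 436.1 in unconditioned medium (log2 fold change −1.92). Espl1, for separase, was at −1.95, Kif22, for a chromosome-arm kinesin, at −1.75, Cdc25b, for the phosphatase that activates CDK1, at −1.55, Cenpb at −1.39, Cdc23, for a subunit of the anaphase promoting complex, at −1.10 and Smc2, for a condensin subunit, at −1.08.

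The 4 genes that rose in adipocyte medium were Cenpl, Cenpa, Ube2s and Ncaph, of which Cenpa and Ube2s were singled out after their values were seen. Cenpl, for a protein of the inner kinetochore, had 9201.5, 7345.8 and 8333.7 normalized counts in adipocyte medium, against 2593.8, 2223.4 and 2428 in unconditioned medium (log2 fold change 1.78). Ncaph, for a condensin subunit, rose by 0.96, Cenpa, for the centromeric histone, by 1.02 and Ube2s, for an enzyme that extends ubiquitin chains, by 0.98 on the log2 scale. These 4 genes were higher after rescaling too.

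In stromal against unconditioned medium the same 46 genes gave 6 higher and 6 lower, so 12 of 46 passed, beside 57.7% of all tested genes. Their median was −0.13, beside −0.16 for all genes, and on the median of ratios scale 12 were higher and 1 lower (39.3% and 19.5% of all genes). Of the 46, 2 are in the authors' stromal table. Ncaph rose by 1.2 and Cenpl by 0.59, while Cdc25b, at 5778.4, 6081.3 and 6509.1 normalized counts in stromal medium, against 13823.2, 14836.3 and 14483.6 in unconditioned medium, was at −1.23. In adipocyte against stromal medium 43 of the 46 were lower and 3 higher, beside 57.2% and 33.8% of all tested genes.

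**Figure D4:**
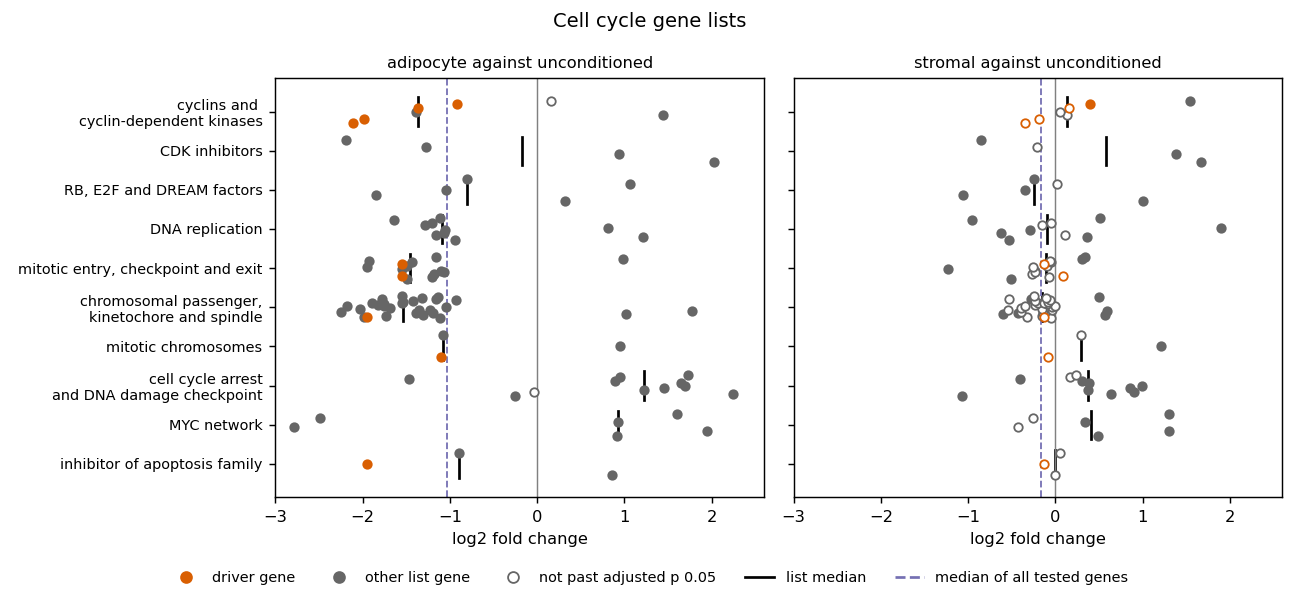
Log2 fold changes (x axes) of the tested genes of 10 cell cycle lists in adipocyte (left) and stromal (right) against unconditioned medium, with the driver genes in orange, open symbols for genes not past an adjusted p of 0.05, a black bar at each list's median and a dashed line at the median of all tested genes. In adipocyte medium the kinetochore and spindle list has its median at −1.54, left of the dashed line at −1.03, and in stromal medium at −0.15, beside −0.16.

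Lists on other stages of the cycle held genes of both directions. Of 20 cyclins and cyclin-dependent kinases 7 were tested, and in adipocyte against unconditioned medium 5 were lower, 1 higher and 1 not past the threshold. Of all tested genes 63.4% were lower and 33.8% higher. Of the 5 lower genes 4 are the driver genes Ccna2, Ccnb1, Cdk1 and Cdk4, and the other is Ccnf. Ccne2, for cyclin E2, which acts at entry into S phase, had 829.8, 718.2 and 741.5 normalized counts in adipocyte medium, against 279.9, 303.4 and 257.1 in unconditioned medium (log2 fold change 1.44, SE 0.13). Ccnf, for cyclin F, had a log2 fold change of −1.39. After the median of ratios 3 of the 7 were lower and 2 higher in this comparison, beside 36.5% and 37.6% of all genes. In stromal medium 2 of the 7 were higher, Cdk4 and Cks1b, and 0 were lower, beside 21.1% and 36.6% of all tested genes. After rescaling 4 were higher there and 0 lower, beside 39.3% and 19.5% of all genes. Cks1b, for a small subunit bound by cyclin-dependent kinases, was singled out after its values were seen and had 3059.9, 2517 and 2751.7 in stromal medium, against 1001.2, 1028.3 and 838.6 in unconditioned medium (log2 fold change 1.54).

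Among 10 tested DNA replication genes, of 56 on the list, 8 were lower and 2 higher in adipocyte against unconditioned medium, and 3 lower and 2 higher after rescaling. These counts are near the shares of all tested genes, 63.4% lower and 33.8% higher, and 36.5% and 37.6% after rescaling. Rfc2, for a subunit of the clamp loader, was at −1.28, Orc5, of the origin recognition complex, at −1.07, Pold1, for the catalytic subunit of DNA polymerase delta, at −1.06, and Dbf4, the activator of the CDC7 kinase, at 1.21. In stromal medium 3 of the 10 rose and 4 fell, beside 21.1% and 36.6% of all tested genes. Of the RB, E2F and DREAM factors 5 of 21 were tested. In adipocyte medium E2f2 was at −1.84, Foxm1, for the factor that activates late cycle promoters, at −1.04 and Rbl2, for the pocket protein p130, at −0.81, while Lin54, for the CHR-binding subunit of DREAM and MuvB complexes, was at 1.07. E2f1, for an activating E2F factor and singled out after its values were seen, was at 0.32 (limma adjusted p = 0.0316) in adipocyte and at 1.00 (limma adjusted p = 3.55e-05) in stromal medium. After rescaling Foxm1 was at −0.12 and Rbl2 at 0.12, and only E2f2 of these 5 was still lower. In stromal medium 3 of the 5 were lower and 1 higher, beside 36.6% and 21.1% of all tested genes. The lower genes were E2f2 at −1.06, Foxm1 at −0.35 (limma adjusted p = 0.0122) and Rbl2 at −0.25 (limma adjusted p = 0.0105). After rescaling 1 was lower there, E2f2, and 2 were higher, beside 19.5% and 39.3% of all genes.

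Of 8 CDK inhibitor genes 4 were tested, and 2 rose and 2 fell in adipocyte against unconditioned medium under both scalings. Of all tested genes 33.8% were higher and 63.4% lower, and 37.6% and 36.5% after rescaling. Cdkn1a, for p21, had 3346.7, 2615.4 and 3005.2 normalized counts in adipocyte medium, against 722.7, 687.5 and 778.3 in unconditioned medium (log2 fold change 2.03, SE 0.12, limma adjusted p = 2.06e-08), and 2676, 2027.6 and 2307.4 in stromal medium (log2 fold change 1.67). Cdkn1c, for p57, rose by 0.94 in adipocyte and by 1.38 in stromal medium. Cdkn2c, for p18, an inhibitor of CDK4 and CDK6, was at −1.27 in adipocyte medium and at −0.21 (limma adjusted p = 0.169) in stromal medium. Cdkn3, for a phosphatase that acts on cyclin-dependent kinases and is itself a late cycle gene, had 17.3, 38.7 and 22.5 in adipocyte medium, against 105.7, 119.1 and 125.9 in unconditioned medium (log2 fold change −2.19). In stromal medium Cdkn3 had 74.3, 48.8 and 71.8 and was called lower (log2 fold change −0.86, limma adjusted p = 0.0345). After rescaling its stromal value was −0.50 (limma adjusted p = 0.172). Of the 4 genes 2 were higher and 1 lower in stromal medium, beside 21.1% and 36.6% of all tested genes.

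Genes of cell cycle arrest and the DNA damage checkpoint rose in 8 of 11 tested cases and fell in 2 in adipocyte against unconditioned medium, with a median of 1.22 beside −1.03 for all genes, of which 33.8% were higher and 63.4% lower. The list has 25 symbols, and 9 are in the authors' adipocyte table. Btg3, for an antiproliferative protein, had 3680.3, 2667.6 and 3856.2 normalized counts in adipocyte medium, against 664.2, 672.8 and 792.5 in unconditioned medium (log2 fold change 2.25). Tob2 and Tob1, of the same family, rose by 1.72 and 0.96, while Sesn1, for a stress-induced inhibitor of mTORC1, was at −1.47. In stromal medium 7 of the 11 rose and 2 fell, with a median of 0.37, where 21.1% of all tested genes were higher and 36.6% lower.

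**Figure D5:**
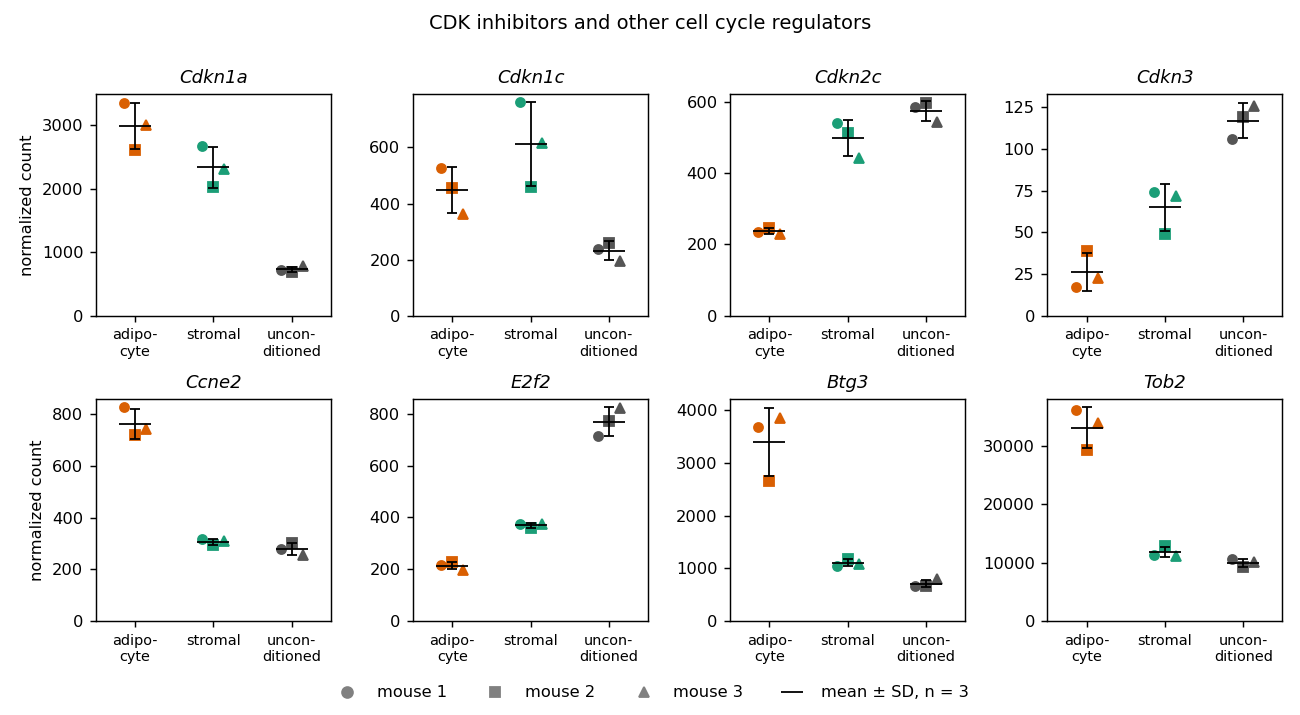
Normalized counts (y axes, from 0) of 4 CDK inhibitor genes and of Ccne2, E2f2, Btg3 and Tob2 in each sample, by medium, with 1 symbol per mouse and the mean ± SD (n = 3) in black. Cdkn1a is higher in both conditioned media, Ccne2 in adipocyte medium, and E2f2 is lower in both.

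Markers of other cells that a spleen preparation can hold moved with adipocyte medium. The 7 B cell markers in the sample table, of 15, had summed levels of 3064 to 3968 normalized counts in adipocyte, 8168 to 12615 in stromal and 7745 to 10111 in unconditioned samples. Most of this sum is Cd74, with means of 2992.7 in adipocyte, 8045.4 in stromal and 6498.9 in unconditioned medium. After the median of ratios Cd74 was at −0.195 in adipocyte against unconditioned medium (limma adjusted p = 0.275). For 5 of 15 myeloid markers the sums were 315 to 735 in adipocyte, 3197 to 8136 in stromal and 3057 to 6455 in unconditioned medium. For 7 of 12 neutrophil markers they were 311 to 1027 in adipocyte, 1861 to 3315 in stromal and 1903 to 2794 in unconditioned medium. All 7 B cell markers, 4 of 5 myeloid and 6 of 7 neutrophil markers were lower in adipocyte than in unconditioned medium, beside 63.4% of all tested genes. After the median of ratios 4 B cell, 4 myeloid and 4 neutrophil markers were still lower, and 0, 1 and 1 were higher. Of all genes 36.5% were lower and 37.6% higher on that scale. The 3 of 13 erythroid precursor markers summed to 3839 to 5236 in adipocyte, 4173 to 5602 in stromal and 2445 to 2572 in unconditioned medium. That sum is mostly Tfrc, for the transferrin receptor, which cycling cells of other types also use and which was higher in adipocyte than in unconditioned medium, at 1.09. Car1 at −1.70 and Ermap at −2.09 were lower. The 3 of 9 natural killer markers summed to 2552 to 4739 in adipocyte, 3673 to 4266 in stromal and 4755 to 5314 in unconditioned medium, with 1 of the 3 higher, 1 lower and 1 not past the threshold in adipocyte against unconditioned medium. Bcl6, the only one of 13 germinal centre and plasmablast markers in the table, had 10683 to 13772 in adipocyte, 3094 to 5575 in stromal and 3184 to 3294 in unconditioned medium. The sample table holds no marker at 0 in any sample. The sums of T cell markers were lower in adipocyte medium as well, and the part of cell composition in the change of the driver genes was not tested.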

How the data were processed

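RNA of 9 mouse spleen T cell samples was sequenced from SMART-seq cDNA in Nextera XT libraries, per the labels' protocols. Per the submitters' processing notes, tools included DESeq2, featureCounts, Trimmomatic and FastQC, and builds GRCm39, GRCh38 and hg38. Not given in the sources used here: aligner, annotation, strand setting. The sample table deposited by the authors holds a signal of reads divided by a size factor, for 2889 genes. 100% of its values came out as whole reads within 0.001. The authors' deposited tables give log2 fold changes, p-values and a score, the Wald statistic beyond 1.5-fold.

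Tests used limma 3.58.1 in R 4.3.3 on log2(value + 1), for the 2868 genes whose mean reached 1, with all 9 samples in 1 fit and medium as the only term. Values were two-sided, Benjamini-Hochberg adjusted, at 0.05. Fold changes on this scale understate changes of low genes. Alternatives were scaling by a median of ratios or TMM, pseudocounts 0.5 and 8, no filter or a mean of at least 10, a block for mouse, only the groups compared, each sample left out, and edgeR 4.0.16 and DESeq2 1.42.0 on recovered reads. The main fit was tested on simulated counts in which most genes were unchanged and the size factors were known. That test does not bear on the choice of scaling.

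The library names in the labels tie the same replicate number to the same mouse. Deviations of same-numbered samples from their group means correlated at 0.209, 0.064 and 0.114 between adipocyte and unconditioned medium, at 0.262, 0.125 and 0.214 between stromal and unconditioned medium, and at 0.179, −0.125 and 0.06 between adipocyte and stromal medium, in mice 1, 2 and 3.

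The driver genes and all gene lists were chosen with earlier results of these data known. Up to 4 genes per list with the smallest adjusted p in any comparison are named, and other names were chosen after their values were seen. For each driver gene the 4 most correlated genes were found, leaving out unnamed models and pseudogenes.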

Additional observations from a re-analysis of the deposited data

How the results depend on the processing

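Scaling decided the most. With the median of ratios 5 driver genes were lower in adipocyte against unconditioned medium, with Cdk4 at 0.008, Cdk1 at −0.45 and Mki67 at −0.18 on the log2 scale. In stromal against unconditioned medium the same scaling called 2 driver genes higher and gave 0.004 for Ccna2, 0.17 for Ccnb1, 0.23 for Plk1, 0.45 for Aurkb (limma adjusted p = 0.0371), 0.22 for Birc5 and 0.27 for Mki67. TMM gave 0.014 for Plk1, 0.006 for Birc5 and 0.054 for Mki67. Both scalings assume a stable middle of a table selected for change, so neither is a neutral scale.

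With only the 2 media in the fit, 1 driver gene, Ccna2, was lower in stromal against unconditioned medium (log2 fold change −0.35, limma adjusted p = 0.0176). Leaving out 1 sample at a time gave 0 to 1 driver genes lower there, the 1 being Ccna2 without adipocyte replicate 3, and log2 fold changes of Ccna2 of −0.43 to −0.28. The replicate block by mouse changed no call of a driver gene and called 2788 genes in adipocyte against unconditioned, 1665 in stromal against unconditioned and 2619 in adipocyte against stromal medium, beside 2787, 1655 and 2609 without the block. edgeR and DESeq2 on recovered reads made the same calls of the driver genes. Of 1140 counts by list, 66 moved by more than 1.5 times or between 0 and another count. With 3 mice a medium, the exact test cannot go below 0.1, and the selection of the table leaves no unselected background.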

Other observations

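The MYC network and the inhibitor of apoptosis family were read from lists of 12 symbols each. Of 6 MYC network genes tested, 4 were higher and 2 lower in adipocyte against unconditioned medium under both scalings, and 4 were higher and 0 lower in stromal against unconditioned medium, beside 33.8% of all tested genes higher in the first comparison and 21.1% in the second. Myc, whose protein pairs with MAX to bind the E-box, had 12005.9, 8681.4 and 10545.6 normalized counts in adipocyte medium, against 5451.9, 5075.2 and 5730 in unconditioned medium (log2 fold change 0.93, SE 0.11). Myc was called higher, as were 33.8% of all tested genes, and Cdk4 lower, as were 63.4%. After the median of ratios Myc was at 1.86 and Cdk4 at 0.008 (limma adjusted p = 0.926), so the fall of Cdk4 depends on the scaling. In stromal medium both were called higher, Myc at 0.33 (limma adjusted p = 0.0225) and Cdk4 at 0.40 (limma adjusted p = 0.000413). Max rose by 0.92 in adipocyte and by 0.48 in stromal medium. Mxd1, for a MAX partner that represses E-box genes, rose by 1.95 in adipocyte and by 1.31 in stromal medium. Mxd3, for a related partner, had 27.3, 39.6 and 26.4 in adipocyte medium, against 215.7, 218.2 and 214.5 in unconditioned medium (log2 fold change −2.78), and was at −0.44 (limma adjusted p = 0.0948) in stromal medium.

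Of 3 genes tested from the inhibitor of apoptosis list, Birc5 and Htra2 were lower and Birc3 higher in adipocyte against unconditioned medium. Of all tested genes 63.4% were lower and 33.8% higher. Birc3, for an inhibitor that acts in NF-kB signalling, had 25093.4, 17775.8 and 23811.2 normalized counts in adipocyte medium, against 12643.4, 12220.1 and 11435.1 in unconditioned medium (log2 fold change 0.86, SE 0.12). Htra2, for a mitochondrial protease that antagonises these inhibitors, was at −0.89, and not past the threshold after rescaling. In stromal medium 0 of the 3 passed the threshold in limma, beside 57.7% of all tested genes. After the median of ratios 2 of the 3 were higher there, as were 39.3% of all genes. These were Birc3 at 0.35 (limma adjusted p = 0.0404) and Htra2 at 0.41 (limma adjusted p = 0.00286).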
